A study of Drosophila melanogaster with 12 samples.

Results

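Nckx30C and Calx are sodium-calcium exchanger genes of the fly whose messenger RNA was followed here in adult heads. They were found as the probe sets for which the platform annotation gives Nckx30C or Calx as the only gene symbol. Of 13966 probe sets, 12443 had a single symbol, covering 10844 named genes, and 3 met this rule. Nckx30C (CG18660, chromosome arm 2L) had probe sets 151600_at and 142518_at, and Calx (CG5685, chromosome arm 3R) had 143737_at.

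All flies were y w; tim01, so every sample carried mutations of the body colour gene yellow, the eye colour gene white and the clock gene timeless, and flies with a working clock were not analysed here. After 3 days of 12 h light and 12 h darkness, flies were taken every 4 h over 1 further such day (LD, ZT2 to ZT22) and then 1 day of constant darkness (DD, CT2 to CT22). The 12 arrays formed 4 groups of 3. ZT2, ZT6 and ZT10 were taken in the light (LD light) and ZT14, ZT18 and ZT22 in the dark phase (LD dark). CT2, CT6 and CT10 were taken by subjective day (DD subjective day), and CT14, CT18 and CT22 by subjective night (DD subjective night). Each array held RNA pooled from the heads of about 100 to 200 flies, and the labels state neither age nor sex. There was 1 array per time, so the spread within a group includes any change over its hours, and nothing states that the time points came from separate cultures. The DD day always came second, so lighting and day of collection cannot be told apart.

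Sodium-calcium exchangers use the inward sodium gradient to carry calcium out of the cell. Nckx30C encodes a potassium-dependent exchanger present in photoreceptors and the brain. Calx encodes a potassium-independent exchanger that clears calcium from photoreceptors after light has opened the TRP and TRPL channels, and its loss makes the retina degenerate in light. RefSeq lists 5 transcripts for Nckx30C and 9 for Calx. Which of these each probe set reads was not analysed here, and a whole-head sample cannot tell fewer cells of a type from less RNA per cell.

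Nckx30C probe set 151600_at was higher in LD than in DD at every clock hour, by 0.50 on the log2 scale on average, a 1.42-fold ratio. Nckx30C probe set 142518_at and the Calx probe set had mean differences of 0.037 and 0.076. The comparison of LD with DD in these arrays was known when the genes were chosen, so for the exchangers it is given as a description without a test. Expression is given throughout as RMA log2 values.

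For Nckx30C probe set 151600_at, the LD arrays read 7.20 at ZT2, 6.95 at ZT6, 6.99 at ZT10, 6.76 at ZT14, 7.11 at ZT18 and 6.83 at ZT22. On the DD arrays it read 6.61 at CT2, 6.43 at CT6, 6.81 at CT10, 6.23 at CT14, 6.33 at CT18 and 6.44 at CT22. The 2 days overlapped by a single array each, with CT10 above ZT14 and every other DD array below every LD array. The mean was 6.97 ± 0.16 in LD and 6.47 ± 0.21 in DD (SD, n = 6 arrays each). LD minus DD was 0.50 (SE 0.076). Every value lay above the upper quartile of every array, which was at most 5.28. The difference was larger in size than that of 99.5% of all probe sets.

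Ordered by level, the group means of 151600_at were 7.05 ± 0.13 in LD light, 6.90 ± 0.18 in LD dark, 6.61 ± 0.19 in DD subjective day and 6.33 ± 0.10 in DD subjective night (SD, n = 3 arrays each). Each group overlapped its neighbour in this order. At the hours lit in LD, LD light minus DD subjective day was 0.44 (SE 0.108). At the hours dark on both days, LD dark minus DD subjective night was 0.57 (SE 0.108).

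Hour by hour, LD minus DD of 151600_at was 0.59 at hour 2, 0.53 at hour 6, 0.19 at hour 10, 0.53 at hour 14, 0.78 at hour 18 and 0.39 at hour 22. The smallest difference was at hour 10 and the largest at hour 18. Of all probe sets, 660 (4.73%) were higher in LD at all 6 hours and 204 (1.46%) were lower at all 6. In the limma fit over all probe sets, 3 of 13966 (0.0215%) passed an adjusted p threshold of 0.05 in LD minus DD, and 151600_at was 1 of them. Nckx30C was thus chosen by the LD and DD values of this probe set, so the call is no separate evidence, and it was kept in 4 of 18 alternative settings.

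**Figure D1:**
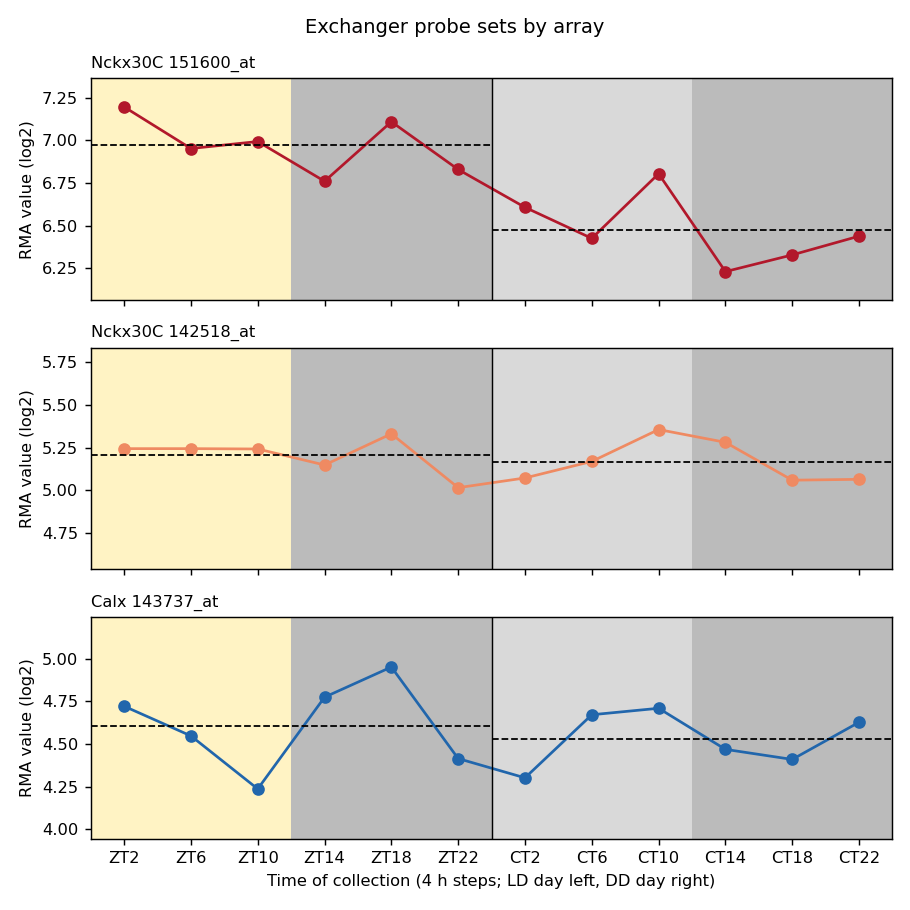
RMA values (log2) of the 3 exchanger probe sets on each of the 12 arrays, in order of collection, with a vertical span of equal size in each panel. Dashed lines are the means of the LD and DD days; yellow marks light, dark grey marks night or subjective night and pale grey marks the subjective day in darkness. The 151600_at values of LD lie mostly above those of DD, and the other probe sets show no such step between the days.

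The other Nckx30C probe set, 142518_at, read 5.24 at ZT2, ZT6 and ZT10, then 5.15 at ZT14, 5.33 at ZT18 and 5.02 at ZT22 in LD. In DD it read 5.07 at CT2, 5.17 at CT6, 5.36 at CT10, 5.28 at CT14, 5.06 at CT18 and 5.06 at CT22. The values of the days were intermingled, and the highest value of all, at CT10, came from DD. Its means were 5.20 ± 0.11 in LD and 5.17 ± 0.13 in DD (SD, n = 6 arrays each), with a difference of 0.037 (SE 0.065). It was higher in LD at 3 of 6 hours, and its hourly differences ran from -0.13 at hour 14 to 0.27 at hour 18.

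All 3 exchanger probe sets had their largest LD minus DD difference at hour 18 and their highest DD value at CT10. The amount by which 151600_at exceeded 142518_at on the same array was 1.77 ± 0.11 in LD and 1.31 ± 0.20 in DD (SD, n = 6 arrays each). Since probe sets bind with different strength, only the change of this amount, 0.46, can be read, and it is the 0.50 of 151600_at less the 0.037 of 142518_at, not a separate result. The amount ranged from 1.61 to 1.95 on LD arrays and from 0.95 to 1.54 on DD arrays. The array with the smallest amount was CT14, where 151600_at was at its lowest and 142518_at was among its higher values.

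Across all 12 arrays the 2 Nckx30C probe sets had Pearson's r = 0.408 (permutation p = 0.185, adjusted over 3 relations 0.277) and Spearman's rho = 0.34 (permutation p = 0.279, adjusted 0.419). Without CT14 and CT18, the arrays farthest from the median of 151600_at, r was 0.577. Within the LD day r was 0.727 (exact permutation p = 0.103, adjusted 0.277) and rho 0.754 (exact p = 0.111, adjusted 0.333). Within the DD day r was 0.318 (exact permutation p = 0.564, adjusted 0.564) and rho 0.257 (exact p = 0.658, adjusted 0.658). None of these relations passed, and the points share a time series and the normalization of their arrays.

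**Figure D2:**
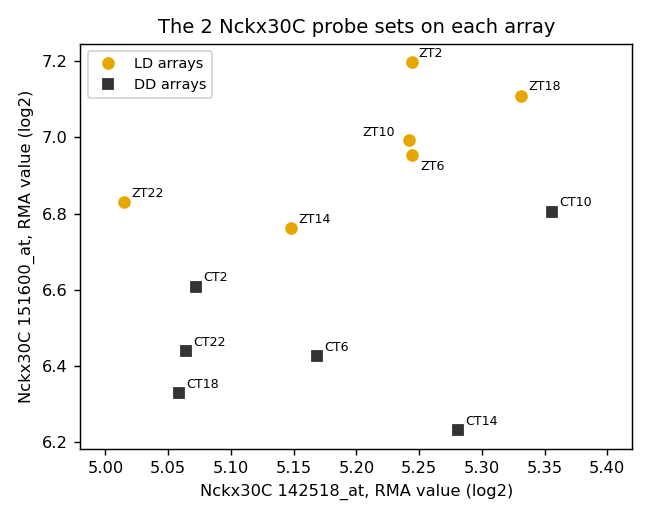
RMA values (log2) of Nckx30C probe set 151600_at against those of 142518_at, 1 point per array, with LD arrays as circles and DD arrays as squares. The days separate along the axis of 151600_at, where only CT10 lies above an LD array, and overlap along that of 142518_at.

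Calx probe set 143737_at read 4.72 at ZT2, 4.55 at ZT6, 4.24 at ZT10, 4.78 at ZT14, 4.95 at ZT18 and 4.42 at ZT22 in LD. In DD it read 4.30 at CT2, 4.67 at CT6, 4.71 at CT10, 4.47 at CT14, 4.41 at CT18 and 4.63 at CT22. Both the lowest and the highest array belonged to LD, and the DD values lay inside that range. The means were 4.61 ± 0.26 in LD and 4.53 ± 0.16 in DD (SD, n = 6 arrays each), with a difference of 0.076 (SE 0.101). At individual hours LD minus DD was as low as -0.47 at hour 10 and as high as 0.54 at hour 18, positive at 3 of 6 hours.

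Calx was at 4.50 ± 0.25 in LD light, 4.71 ± 0.27 in LD dark, 4.56 ± 0.23 in DD subjective day and 4.50 ± 0.11 in DD subjective night (SD, n = 3 arrays each). All 4 groups overlapped. LD light minus DD subjective day was -0.059 and LD dark minus DD subjective night 0.21 (SE 0.143 each), so these 2 differences had opposite signs. Calx values lay between the median and the upper quartile of the arrays.

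**Figure D3:**
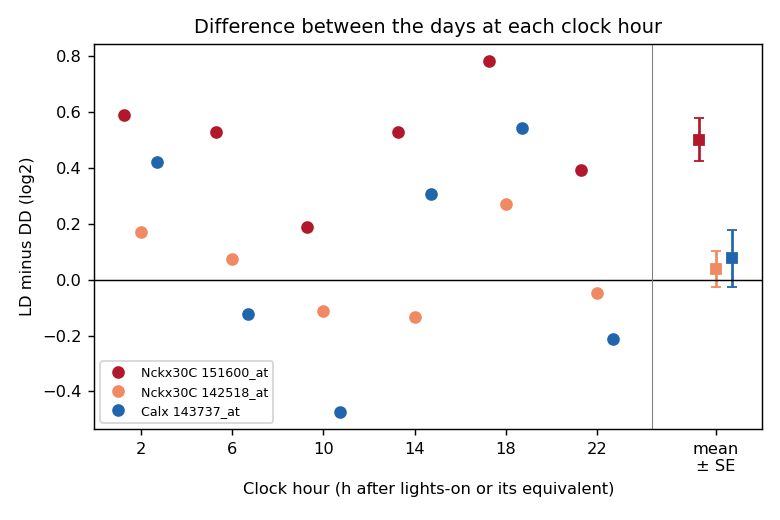
LD minus DD (log2) of each exchanger probe set at each of the 6 clock hours, with the mean and its SE from the limma fit as squares at the right. The 151600_at points are all above 0, between 0.19 and 0.78, while those of 142518_at and of Calx fall on both sides of 0.

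Comparisons within a day are not part of the rule that chose the genes, and there no exchanger probe set passed limma's test. LD light minus LD dark was 0.15 for 151600_at (95% interval -0.082 to 0.377, limma adjusted p = 0.81) and 0.079 for 142518_at (-0.117 to 0.274, adjusted p = 0.886). For Calx it was -0.21 (-0.517 to 0.094, adjusted p = 0.786). Of all probe sets, 4 (0.0286%) passed in this comparison. The intervals are wide, so a p above the threshold does not show equal levels in light and darkness.

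In constant darkness, 151600_at was higher by 0.28 in the subjective day than in the subjective night (95% interval 0.05 to 0.51, limma adjusted p = 0.384). The unadjusted interval excludes 0, but the difference did not pass after adjustment over all probe sets. The corresponding differences were 0.064 for 142518_at (-0.131 to 0.26, adjusted p = 0.904) and 0.059 for Calx (-0.247 to 0.365, adjusted p = 0.954). Of all probe sets, 194 (1.39%) passed here. Whether the day-night difference itself differed between LD and DD was tested as an interaction, in which 0 probe sets passed in limma and 1025 had an unadjusted p under 0.05. That contrast was -0.13 for 151600_at (adjusted p = 0.905), 0.014 for 142518_at (adjusted p = 0.993) and -0.27 for Calx (adjusted p = 0.84).

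A curve with a 24 h period passed for none of the exchanger probe sets on either day. The amplitude, the distance from mean to peak, of 151600_at was 0.092 in LD (SE 0.089, limma adjusted p = 0.884) and 0.16 in DD (SE 0.089, adjusted p = 0.68). For 142518_at it was 0.045 in LD (SE 0.056, adjusted p = 0.932) and 0.15 in DD (SE 0.056, adjusted p = 0.461), with a fitted DD peak at hour 10.7. Calx had 0.18 in LD (SE 0.102, adjusted p = 0.758), with a fitted peak at hour 18.8, and 0.10 in DD (SE 0.102, adjusted p = 0.87). Of all probe sets, 9 (0.0644%) passed in LD and 109 (0.78%) in DD.

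Markers of other tissues also read at different levels on some arrays of the 2 days. The summed level of midgut markers (8 of 9 measured) was 9.38 ± 1.03 in LD, from 8.33 to 10.8, and 10.3 ± 1.59 in DD, from 8.23 to 11.9 (log2 of the sum, SD, n = 6). For thorax muscle (7 of 9) it ranged from 10.3 to 10.5 in LD and from 10.3 to 10.9 in DD, and for male reproductive markers (8 of 9) from 7.20 to 8.53 in LD and from 7.25 to 9.31 in DD. By group, midgut markers ranged from 8.33 to 9.86 in LD light and from 8.23 to 10.2 in DD subjective day. They ranged from 8.35 to 10.8 in LD dark and from 11.5 to 11.9 in DD subjective night, so the dark-phase groups did not overlap. Nor did they for male reproductive markers, at most 8.53 in LD dark and at least 8.85 in DD subjective night. For thorax muscle the corresponding values were 10.55 and 10.66, again without overlap.

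Among markers of cells of the eye and brain, the 3 photoreceptor markers measured (of 10) summed to 10.1 to 10.4 in LD and 10.2 to 10.5 in DD, the 5 neuron markers (of 8) to 6.79 to 6.93 and 6.72 to 6.92, and the 7 glia markers (of 9) to 9.95 to 10.1 and 9.76 to 10.04. Glia markers were at least 10.04 in LD dark and at most 10.01 in DD subjective night, without overlap and higher in LD dark. This sum follows mainly Gs2 (mean 9.55), and the separation is likewise only a description. Of the 3 photoreceptor markers, inaD had an LD minus DD difference of -0.22 (SE 0.059, limma adjusted p = 0.208) and was below its DD value at all 6 hours. The others, chp and trp, had differences of the opposite sign, 0.056 and 0.038. No marker was at 0, since RMA values carry a background. The 3′ minus 5′ difference of the GAPDH control, a sign of RNA integrity and labelling, was 2.38 ± 0.12 in LD and 2.21 ± 0.07 in DD (SD, n = 6 arrays each). That of eIF-4a was 3.22 ± 0.25 in LD and 3.11 ± 0.12 in DD. ZT14, the array with the largest 3′ minus 5′ difference for both controls, had the lowest 151600_at value of LD, and CT14, with the smallest for both, had the lowest of DD. The part of these tissue marker and array differences in the 151600_at result was not tested.

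Other genes of calcium and ion handling were read from 5 lists, with 57 distinct genes measured besides the exchangers. None of the 57 passed in limma in LD minus DD, against 0.0215% of all probe sets, and 10 had an unadjusted p under 0.05 (17.5%, against 10.8% of all probe sets). None passed in the within-day comparisons or harmonics either. Those with an unadjusted p under 0.05 were 8 of 57 in LD light minus LD dark (14%, against 7.12% of all probe sets) and 9 in DD subjective day minus DD subjective night (15.8%, against 9.04%). In the harmonics they were 13 in LD (22.8%, against 8.94%) and 12 in DD (21.1%, against 11%). In the interaction 0 list genes passed, and 2 had an unadjusted p under 0.05 (3.51%, against 7.34%). Without ZT22, 83 of all probe sets passed in LD minus DD, against 3 with all arrays, and 168 in the DD harmonic, against 109. In that setting Gbeta76C, the beta subunit of the photoreceptor G protein, passed in LD minus DD at -0.35 (limma adjusted p = 0.0335). SERCA then passed in the DD harmonic with an amplitude of 0.36 (adjusted p = 0.037). Without ZT2 or ZT10, the rhodopsin phosphatase gene rdgC passed in the LD harmonic (amplitudes 0.54 and 0.57, adjusted p = 0.0451 and 0.0393). Of all probe sets, 13 and 15 passed in these settings, against 9 with all arrays.

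Of the list of further exchangers and related transporters, 7 of 9 names were measured, and their LD minus DD differences ran from -0.032 to 0.086 with a median of 0.008, against 0.021 over all probe sets. These names include CG34396, whose role as an exchanger is doubtful. CG1090, predicted to encode a potassium-dependent exchanger like Nckx30C, averaged 5.55 in LD and 5.47 in DD, a difference of 0.086 (SE 0.052, limma adjusted p = 0.577). CG14744, a predicted exchanger gene with a low mean of 2.86, under the lower quartiles of the arrays, was at 0.072 (SE 0.046, adjusted p = 0.596). In DD, the predicted exchanger gene CG13223 was higher by 0.26 in the subjective day than in the subjective night (SE 0.084, adjusted p = 0.227), the list's smallest p in that comparison. Its DD harmonic had an amplitude of 0.22 (SE 0.051, peak at hour 6.6, adjusted p = 0.134) and its LD harmonic 0.066 (adjusted p = 0.833). Its LD and DD means were 4.11 and 4.15. The smallest p-values of LD light minus LD dark belonged to CG1090, at -0.084 (adjusted p = 0.841), and CG34396, at 0.059 (adjusted p = 0.864). CG34396 was at 0.074 in DD subjective day minus night (adjusted p = 0.785). In the harmonics the list's other named genes were CG14743 in LD (amplitude 0.071, adjusted p = 0.833) and CG1090 in DD (0.10, adjusted p = 0.586).

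The phototransduction cascade lets in the calcium that these exchangers remove, and 18 of 30 of its list's names were measured. In LD minus DD, 10 were positive and 8 negative, with a median of 0.046. The light-sensitive channel gene trpl averaged 9.48 in LD and 9.20 in DD, a difference of 0.28 (SE 0.076, limma adjusted p = 0.208). The scaffold gene inaD, which holds the channel complex together, averaged 8.08 in LD and 8.30 in DD, a difference of -0.22 (SE 0.059, adjusted p = 0.208). The values of trpl and inaD thus lay on opposite sides of 0, and neither passed. The other channel gene of this list, trp, was at 0.0375 (SE 0.0566), so the contrast with inaD is that of trpl only. Within the days, the smallest p-values of this list belonged to rdgC and trpl in LD and to trpl and Gbeta76C in DD, with LD light minus LD dark of -0.60 for rdgC (adjusted p = 0.329) and 0.43 for trpl (adjusted p = 0.378). DD subjective day minus night was 0.29 for trpl (adjusted p = 0.331) and 0.32 for Gbeta76C (adjusted p = 0.339). In LD the harmonic amplitudes were 0.50 for rdgC (adjusted p = 0.066) and 0.35 for trpl (adjusted p = 0.115), and in DD 0.23 for both trpl and Gbeta76C (adjusted p = 0.222 and 0.258).

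Among calcium pumps, channels and store genes, 13 of 20 names were measured, with 10 positive and 3 negative in LD minus DD and a median of 0.075. Itpr, the receptor gene that releases stored calcium, averaged 2.64 in LD and 2.39 in DD, a difference of 0.26 (SE 0.069, limma adjusted p = 0.203), at levels below the lower quartile of the arrays. SPoCk, a calcium pump gene of the secretory pathway, was at 0.19 (SE 0.06, adjusted p = 0.273). The plasma membrane calcium pump gene PMCA, which like the exchangers moves calcium out of the cell, was lower by 0.33 in LD light than in LD dark (a difference of -0.33, SE 0.096, adjusted p = 0.487). Its LD harmonic had an amplitude of 0.28 with a peak at hour 17.4 (adjusted p = 0.206). SERCA, the pump gene that refills the endoplasmic reticulum and is abundant in muscle, was at -0.46 in DD subjective day minus night (SE 0.166, adjusted p = 0.317), with a DD amplitude of 0.36 (adjusted p = 0.145) and an LD amplitude of 0.31 (adjusted p = 0.412). The calcium channel subunit gene Ca-beta was at 0.16 in LD light minus LD dark (adjusted p = 0.732), with a DD amplitude of 0.17 (adjusted p = 0.266), and SPoCk was at 0.18 in DD subjective day minus night (adjusted p = 0.554).

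Calcium-binding proteins had 10 of 18 names measured, and their median LD minus DD was 0.036. Cbp53E, which encodes a calbindin-like calcium buffer, averaged 3.57 in LD and 3.80 in DD, a difference of -0.23 (SE 0.082, limma adjusted p = 0.323). The calcineurin subunit gene CanB2 was at 0.18 (SE 0.09, adjusted p = 0.491), with an LD harmonic amplitude of 0.26 (adjusted p = 0.366). In LD light minus LD dark, the calsyntenin gene Cals was at -0.21 (adjusted p = 0.616) and the calnexin gene Cnx99A at -0.20 (adjusted p = 0.724). In DD subjective day minus night, Cnx99A was at -0.26 (adjusted p = 0.396) and Cbp53E at -0.26 (adjusted p = 0.52). The remaining named harmonics were those of Cals in LD (0.18, adjusted p = 0.381), Cbp53E in DD (0.21, adjusted p = 0.417) and Cnx99A in DD (0.20, adjusted p = 0.46).

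The genes of sodium and proton transport, which include those setting the sodium gradient that drives the exchangers, had 9 of 12 names measured and a median LD minus DD of 0.030. The sodium pump subunit gene nrv2 was at 0.089 (SE 0.071, limma adjusted p = 0.691) and the sodium-proton exchanger gene Nhe2 at 0.067 (SE 0.064, adjusted p = 0.752). In LD light minus LD dark, Nhe1, another sodium-proton exchanger gene, was at -0.26 (adjusted p = 0.607) and the sodium pump subunit gene nrv1 at -0.18 (adjusted p = 0.607). In DD subjective day minus night Nhe2 was at -0.14 (adjusted p = 0.71) and Nhe1 at -0.096 (adjusted p = 0.823). Harmonic amplitudes were 0.18 for Nhe1 and 0.12 for nrv1 in LD (adjusted p = 0.554 and 0.593), and 0.20 for Nhe2 and 0.12 for the sodium channel gene para in DD (adjusted p = 0.118 and 0.691).

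**Figure D4:**
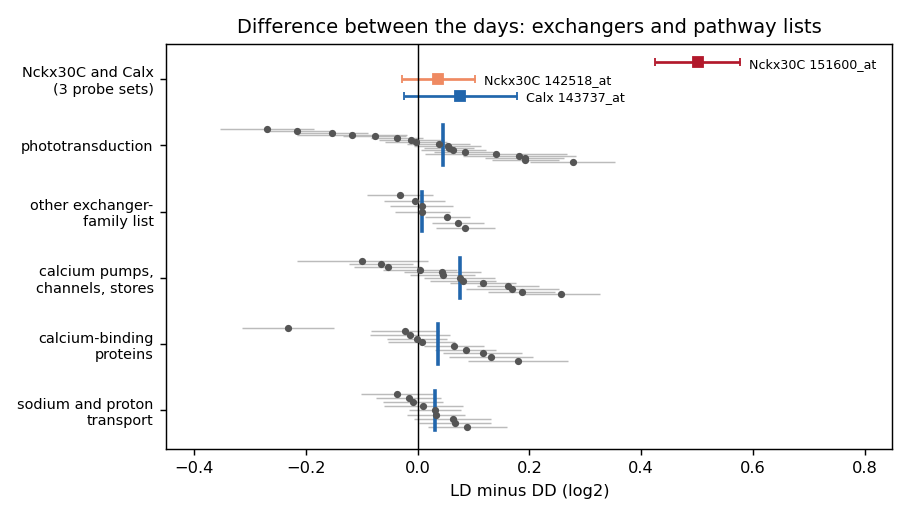
LD minus DD (log2) with SE for the 3 exchanger probe sets in the top row and for the measured genes of the 5 lists below, 1 point per gene, with each list's median as a blue bar. The 151600_at point at 0.50 lies to the right of every list gene, the highest of which is trpl at 0.28. Nckx30C was chosen by the LD and DD values of this probe set, so its place is only a description.

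The probe sets of other genes whose course was most like that of 151600_at were searched among 6190 whose SD over the 12 arrays was above the median. The closest was that of LysRS, which encodes lysyl-tRNA synthetase, with r = 0.939 over 12 arrays. It was followed by the odorant binding protein gene Obp99b (0.915), the transcription factor gene opa (0.892), CG44838 (0.885) and Reph (0.842). Their LD minus DD differences, between 0.19 for CG44838 and 0.28 for Reph, were smaller than the 0.50 of 151600_at, and opa was weakly detected, with a mean of 1.90. These correlations are the highest of many and share the step between the days, so they are given as a description.

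No gene was among the 5 closest of more than 1 exchanger probe set. For 142518_at they were Vha16-2 (r = 0.903), larp (0.887), cpo (0.874), CG42342 (0.87) and phtm (0.868), with LD minus DD from -0.008 for larp to 0.113 for cpo. For Calx they were nbs (0.887), lola (0.843), Rga (0.836), ckn (0.835) and CG1523 (0.834), with differences from 0.006 for nbs to 0.101 for ckn.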

How the data were processed

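Messenger RNA of fly heads was read on 12 Affymetrix arrays, 1 per time. The deposited log2 values were computed by RMA, as the submitters' processing notes name it: a background correction, a normalization between arrays and 1 summary value per probe set. The RMA version is unstated. Of 14010 probe sets, 44 controls were left out. The platform annotation gave 1 symbol for 12443 probe sets, several for 327 and none for 1196. No pair of arrays held identical values. The number of arrays limits the precision.

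With limma 3.58.1 in R 4.3.3, 4 group means were fitted to 12 arrays (8 residual degrees of freedom), and a 24 h cosine curve was fitted to each day (6). P-values were adjusted by Benjamini-Hochberg over 13966 probe sets, with a threshold of 0.05. They reflect the spread between these arrays only. The scripts were tested on simulated data. Correlations used 100000 permutations over 12 arrays and all orders within a day. All exchanger probe sets are given. From each list the genes past the threshold, or otherwise the 2 with the smallest p, are named. The channel gene trp is given in addition, beside trpl. A gene outside the exchangers is read from its probe set of highest mean. The 5 probe sets of other genes with the highest r are named for each exchanger probe set. Members and lists were chosen with earlier results of these data known.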

Additional observations from a re-analysis of the deposited data

How the results depend on the processing

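With single arrays left out, the LD minus DD difference of 151600_at lay between 0.45 (without ZT18) and 0.55 (without CT10), that of 142518_at between -0.0044 and 0.076 and that of Calx between 0.012 and 0.15. With a linear trend over collection hours, added after seeing the data and partly confounded with the days, the 151600_at difference was 0.70 (SE 0.293), while those of 142518_at and Calx changed sign, to -0.01 (SE 0.254) and -0.13 (SE 0.391). Under the other scalings, priors and the clock hour as a block, the 3 differences moved by less than the residual SD. In the tested comparisons no exchanger probe set passed under any of these alternatives, and 3 of their values changed sign. The interaction of 142518_at was -0.0077 with median centring and lay between -0.0605 and 0.098 without single arrays. Its DD subjective day minus night lay between -0.0142 and 0.14. For Calx that difference was -0.0453 with the trend and between -0.0153 and 0.19 without single arrays.

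Counts over all probe sets moved more. In LD minus DD the count of 3 was 5 with quantile normalization, 0 among probe sets above the median level, 14 with a trended, robust prior, 1 with the hour block, 0 with the trend, and 1 to 83 without single arrays, the 83 without ZT22. In LD light minus LD dark the count of 4 was 0 with quantile normalization, with only the LD arrays and with the trend, 9 with that prior, and 0 to 8 without single arrays. In DD subjective day minus night the count of 194 was 82 above the median level, 101 with that prior, 0 with the trend, and 34 (without CT2) to 254 (without CT10) otherwise. The interaction count of 0 was 1 above the median level and with that prior, and 0 to 6 without single arrays. In the LD harmonic the count of 9 was 4 with quantile normalization, 16 with centring, 28 above the median level, 38 with that prior, 0 with only the LD arrays, and 3 to 15 without single arrays. In the DD harmonic the count of 109 was 174 from the DD arrays alone, 20 above the median level, 66 with that prior, and 0 to 222 without single arrays. The cause was not tested.

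Of the 57 list genes, rdgC passed in the LD harmonic with centring and above the median level (a count of 1 each), and rdgC and trpl passed with a trended, robust prior (2). SERCA passed in the DD harmonic with only the DD arrays, a count of 1. Without single arrays these counts lay between 0 and 1. No paired analysis by replicate number was possible because the labels carry none.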

Other observations

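Of 8 RefSeq genes that neighbour or overlap the exchangers in Release 6 plus ISO1 MT, chosen by position alone, 6 had a probe set of their own here, and none of the 6 passed in LD minus DD. CG43446, which overlaps Calx, and Atpalpha beside it had no probe set under their own names here and were not analysed. CG13116 and CG13117, which overlap the span of Nckx30C, were at 0.027 (SE 0.050, limma adjusted p = 0.898) and -0.025 (SE 0.057, adjusted p = 0.92). CG4364 and Cyp4e3, on either side of Nckx30C, were at -0.10 (SE 0.068, adjusted p = 0.602) and 0.045 (SE 0.081, adjusted p = 0.894). Alp5, which overlaps Calx, and CG5697 beside it were at -0.018 (SE 0.045, adjusted p = 0.929) and 0.035 (SE 0.043, adjusted p = 0.821).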
